A study of Mus musculus with 40 samples.

Results

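Cecal contents hold a dense bacterial community that meets the sugars and peptides the host leaves undigested. Many gut bacteria take these up with ABC transporters, each built from a binding protein that catches the solute, permeases that form the channel and ATPase subunits that drive it. In the mgl system the binding protein MglB catches galactose and glucose, MglA is the ATPase and MglC the permease. AgpA is named for a binding protein of alpha-galactosides, the sugars of raffinose and related plant oligosaccharides. DppB is a permease and DppE a binding protein of dipeptide transporters, and OppA binds oligopeptides.

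The genes described here are the sugar and dipeptide ABC transporter genes found under 10 symbols, agpA, mglA, mglB, mglC, dppA, dppB, dppC, dppD, dppE and oppA, with any numeric suffix removed. They were sought in the count tables of 5 bacteria, named as deposited: F. rodentium, L.bacterium335, Acetatifactor, X. muris and D. muris. Of 16737 rows, 17 matched, with 7 in F. rodentium, 7 in L.bacterium335, 3 in Acetatifactor and 0 in D. muris and in X. muris. The symbols dppA, dppC, dppD and oppA had no row, which says nothing of genes listed without a symbol. The low-count filter passed 15 of the 17. The set was proposed because agpA and dppB_1 of Acetatifactor differed from 0% at 2.5% and mglB of F. rodentium differed at 0.5% and 2.5%, so these values are given as a description without a p-value. The other 14 rows entered by symbol.

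The mice were C57BL/6 and were put at 3 weeks of age on the Total Western Diet, a chow composed after a Western pattern of nutrients. All ate it plain for 6 weeks. For 3 further weeks broccoli powder made up 0%, 0.5%, 1% and 2.5% of this diet in the 4 groups, and RNA was then taken from the cecal contents of 10 mice per diet, 1 library each. The 0% group thus shares the Total Western Diet with every dose. The labels do not say which mice shared a cage. The comparison of doses asks whether broccoli changes how each bacterium transcribes its uptake genes.

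Depth differed widely among bacteria. Counts per library ranged from 161 to 4882829 on F. rodentium, from 18763 to 814317 on L.bacterium335 and from 15726 to 246887 on Acetatifactor. The median on F. rodentium was 511338 at 0% and 75068.5 at 2.5%, and 2.5% replicates 6 and 9 held only 161 and 352 counts, so this genome had 8 libraries at 2.5%. On L.bacterium335 a median of 76.8% of the 0% counts lay on the 5 most counted features, against 18.1% at 2.5%. On Acetatifactor this share was 56.8% at 0% and 28.7% at 2.5%. Of the 2.5% libraries 2 stood apart. In replicate 9 the share on L.bacterium335 was 79.1%, and replicate 8 had 28575 counts on Acetatifactor with all 3 transporter rows at 0. In libraries of mixed RNA, fewer cells of a bacterium and less RNA per cell cannot be told apart. Levels are therefore given as CPM within a genome, which scales each count to the total on that genome in its library, adjusted by a TMM factor. They follow a gene relative to this total, which is not always the typical gene. At 2.5% against 0% the median log2 fold change of all tested genes was 7.94 on L.bacterium335 and 1.81 on Acetatifactor. On F. rodentium it was 0.01. Folds in the first 2 genomes include this shift. Gene lengths were not used, so levels are not compared between genes.

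In F. rodentium the mean levels of the 3 mgl genes were highest at 0.5% broccoli and next at 2.5%, then came 1% and last 0%, while its dipeptide genes did not pass the test at any dose. With 99 counts each over the 0% group, mglA and mglC could pass the low-count filter through the doses alone. They also belong to the same transporter as mglB, which was chosen by its differences from 0% at 0.5% and 2.5%. No p-value is therefore given for mglA and mglC against 0%. Between doses, mglC passed the test of 1% against 0.5%, and mglA did not. Neither gene passed in the contrasts of 2.5% with 0.5% or with 1%. The binding protein gene mglB had 0 to 65.4 CPM at 0%, with a median of 27 over 10 libraries. At 0.5% it had 247 to 1800 CPM, with a median of 694. At 1% the range was 32.9 to 139 with a median of 91, and at 2.5% it was 98.4 to 315 with a median of 160 over 8 libraries. Every 0.5% library lay above every library of the 0% and 1% groups, and every 2.5% library lay above the 0% range. The 1% range overlapped both the 0% and the 2.5% range. The means were 30.3 ± 21 (SD, n = 10), 798 ± 568 (n = 10), 81.2 ± 39.9 (n = 10) and 183 ± 78 (n = 8) CPM in order of dose. Against 0% the log2 fold change of mglB was 4.59 ± 0.38 (SE) at 0.5%, 1.33 ± 0.39 at 1% and 2.40 ± 0.41 at 2.5%. Between doses it was -3.27 ± 0.37 for 1% against 0.5%. The summed raw count of mglB was 228 at 0%, 6335 at 0.5%, 328 at 1% and 277 at 2.5%.

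**Figure D1:**
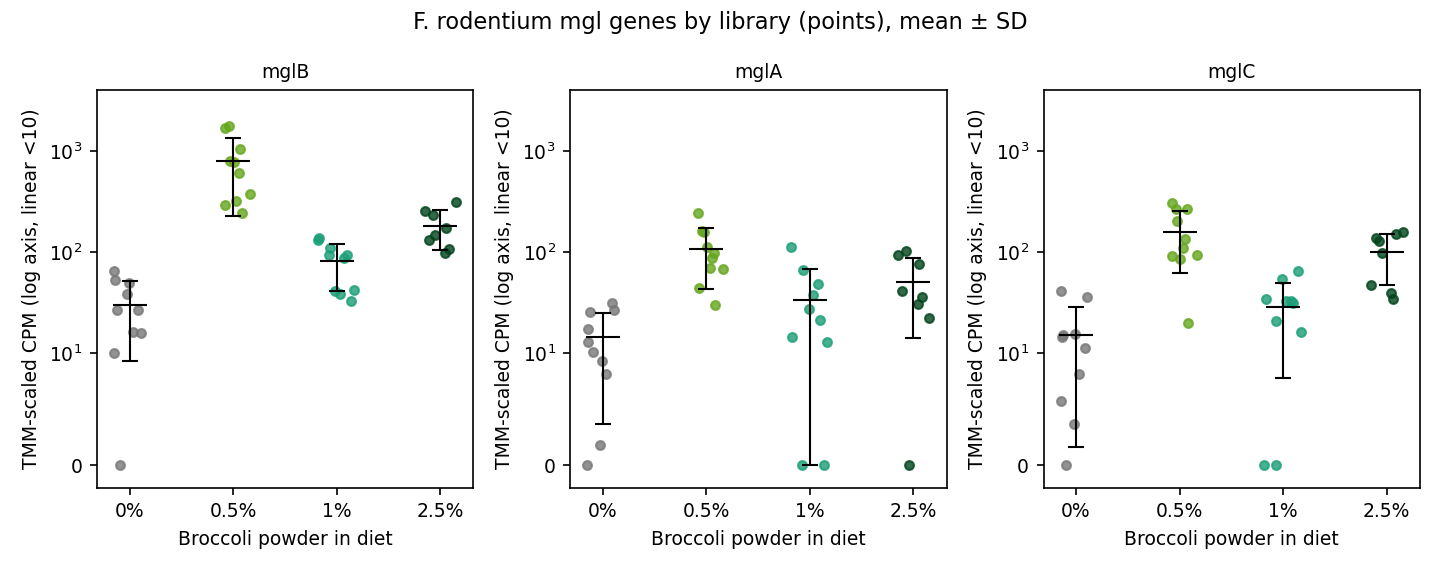
TMM-scaled CPM of mglB, mglA and mglC of F. rodentium (y axis, logarithmic above 10 and linear below) in each library (points) by percent of broccoli powder in the diet (x axis), with mean and SD (bars, stopped at 0), n = 10, 10, 10 and 8. All 10 mglB values at 0.5% (247 to 1800) lie above the 0% range (0 to 65.4), and the 1% values of all 3 genes lie mostly below the 0.5% values.

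The permease gene mglC followed the same order of doses. It had 0 to 41.3 CPM at 0% (median 12.8), 19.8 to 305 at 0.5% (median 123), 0 to 65.8 at 1% (median 32) and 34.4 to 157 at 2.5% (median 114). At 0.5% 9 of 10 libraries lay above the whole 0% range, the exception being 0.5% replicate 5, and at 2.5% 6 of 8 did. Against 0% its log2 fold change was 3.31 ± 0.42 at 0.5% and 2.64 ± 0.47 at 2.5%. At 1% it was 0.85 ± 0.46 above 0%. Between 0.5% and 1% it fell by 2.46 ± 0.42 (log2, edgeR adjusted p = 0.000564), one of 5 genes called among the 1689 tested in that contrast (0.296%). From 1% to 2.5% it was 1.79 ± 0.47 higher, just short of the threshold (edgeR adjusted p = 0.0545).

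The ATPase gene mglA had 0 to 31.5 CPM at 0% (median 11.6), 29.7 to 243 at 0.5% (median 92.3), 0 to 112 at 1% (median 24.3) and 0 to 103 at 2.5% (median 38.8). Of the 0.5% libraries 9 of 10 lay above the 0% range, and of the 2.5% libraries 5 of 8. Its log2 fold change against 0% was 2.85 ± 0.48 at 0.5% and 1.88 ± 0.54 at 2.5%. The value at 2.5% was 1.55 without 2.5% replicate 8 and 1.80 without 2.5% replicate 3. With log10 of the total on the genome in the model it was 1.87. At 1% mglA was 1.10 ± 0.52 above 0%, and 1% against 0.5% gave -1.75 ± 0.48 (edgeR adjusted p = 0.0831). Without 1% replicate 1 that last difference passed the test (-2.05, edgeR adjusted p = 0.0488).

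Of the 3 mgl genes, the binding protein gene had the largest log2 fold change at 0.5%. This contrast also chose mglB, so nothing is read from that order. For each count of mglC, summed over libraries, there were 2.3 counts of mglB at 0%, 4.56 at 0.5%, 2.5 at 1% and 1.78 at 2.5%. For each count of mglA there were 2.3, 6.87, 2.34 and 2.64 counts of mglB in the same order. The ratios at 0%, 0.5% and 2.5% use the values that chose mglB, and all are descriptions without a test.

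The 4 dipeptide rows of F. rodentium were the permease gene dppB and the binding protein genes dppE_1, dppE_2 and dppE_3. They had counts in every library used, though few in some (4 of dppB in 0% replicate 2). No test was passed in any of the 6 contrasts. Of all 1689 tested genes 143, 8 and 159 were called in either direction at 0.5, 1 and 2.5% against 0%. Between doses 5, 57 and 13 were called (1% against 0.5%, 2.5% against 0.5% and 2.5% against 1%). Calls were thus rare, and nothing is read from 4 rows without one. The log2 fold changes of the dipeptide rows against 0% lay between -0.29 (dppE_1 at 1%) and 0.57 (dppE_2 at 2.5%). The smallest edgeR adjusted p among these 12 values was 0.288. The gene dppE_1 had 640 to 6760 CPM at 0% (median 3360), 1270 to 5750 at 0.5% (median 4260), 244 to 5090 at 1% (median 3270) and 1400 to 5330 at 2.5% (median 3680). The means of dppB were 296 ± 152, 283 ± 159, 301 ± 127 and 400 ± 184 CPM (SD, n = 10, 10, 10 and 8). For dppE_2 they were 967 ± 497, 958 ± 519, 963 ± 425 and 1470 ± 686 CPM, and for dppE_3 2050 ± 665, 2410 ± 756, 1950 ± 1090 and 1930 ± 537 CPM. All 4 groups overlapped for each of these genes. The ratio of dppE_1 to dppE_3 counts stayed between 1.47 and 1.76.

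**Figure D2:**
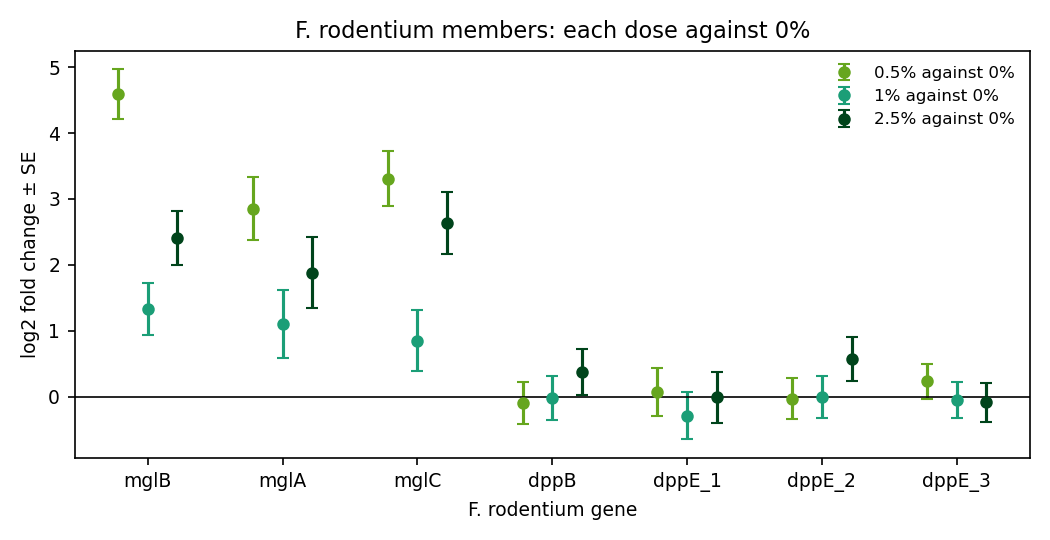
Log2 fold change of the 7 F. rodentium rows (y axis) at 0.5, 1 and 2.5% broccoli against 0%, with SE as bars, n = 10, 10 and 8 against 10. The 3 mgl genes lie between 0.85 and 4.59, and the 4 dipeptide genes between -0.29 and 0.57.

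Against 0% only the dipeptide rows of F. rodentium were given a p-value, and none was called. Among all 1689 tested genes of this bacterium 3.55%, 0.474% and 5.39% were called higher at 0.5%, 1% and 2.5%. Between doses mglA and mglC were tested too. In 2.5% against 0.5% and in 2.5% against 1% none of these 6 rows was called, where 3.37% and 0.77% of all tested genes were. The 2.5% group of F. rodentium rests on shallow libraries, with 6 to 152 counts of mglB each, while its 0.5% libraries held 100 to 1483.

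Libraries with titles numbered 76 to 81 stand apart in the numbering, and 4 of them belong to the 0.5% group, 1 to 1% and 1 to 2.5%. The labels do not say what the number marks. At 0.5% mglB had 292 to 1710 CPM in these 4 libraries and 247 to 1800 in the other 6. Without all of them, the log2 fold change at 0.5% was 4.45 for mglB, 3.04 for mglC and 2.75 for mglA.

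Other uptake and galactose genes of F. rodentium were compared as lists. Of 10 other sugar ABC transport rows 7 passed the low-count filter, and none was called at any dose against 0%, with list medians of -0.02, -0.01 and 0.07 on the log2 scale beside 0.02, -0.04 and 0.01 for all tested genes. None of 3 other peptide transport genes was called. With only 143, 8 and 159 of 1689 genes called in either direction against 0%, nothing is read from these rows without a call. Of 6 galactose and alpha-galactoside genes, 1 rose at 0.5%, galT, the uridylyltransferase of galactose breakdown (1.13 ± 0.35, edgeR adjusted p = 0.0352). At 2.5% 1 rose, agaA_2, named for an alpha-galactosidase (1.44 ± 0.40, edgeR adjusted p = 0.0184). Of 47 alternatives, galT lost its call in 6 and agaA_2 in 4. Among them was the one without libraries 76 to 81 (galT 0.92 and agaA_2 1.14, edgeR adjusted p = 0.249 and 0.0919). The median of the 6 was 0.97 at 0.5%, 0.62 at 1% and 0.74 at 2.5%. Of 4 peptidase genes, pepD_2 fell at 0.5% by 1.00 ± 0.25 (log2, edgeR adjusted p = 0.00802) and the other 3 passed no test.

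In L.bacterium335 all 6 tested rows went from 0 or a few counts without broccoli to a high level at every dose, along with most of this genome. The sugar-binding gene mglB_1 held 26 counts over the 10 libraries at 0%, 0 to 12 in each. Its means in order of dose were 45.5 ± 69.6, 27300 ± 7180, 34700 ± 17500 and 25100 ± 15100 CPM (SD, n = 10 each). Single libraries ranged from 0 to 186 CPM at 0%, 16300 to 38200 at 0.5%, 18900 to 66600 at 1% and 62.6 to 58000 at 2.5%, where the lowest value was that of replicate 9. Every 0.5% and 1% library and 9 of 10 at 2.5% lay above the whole 0% range. With 26 counts at 0%, mglB_1 could pass the low-count filter through the doses alone, so no p-value is given against 0%. Its log2 fold changes were 9.39 ± 0.83, 9.74 ± 0.84 and 9.27 ± 0.83. Without 0% replicate 3, which held 12 of the 26 counts, they were 10.15, 10.5 and 10.03, and without 2.5% replicate 3 the last was 8.6. At the doses this single gene took a mean of 1.86%, 2.82% and 3.33% of all counts on the genome, against 0.00669% at 0%.

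**Figure D3:**
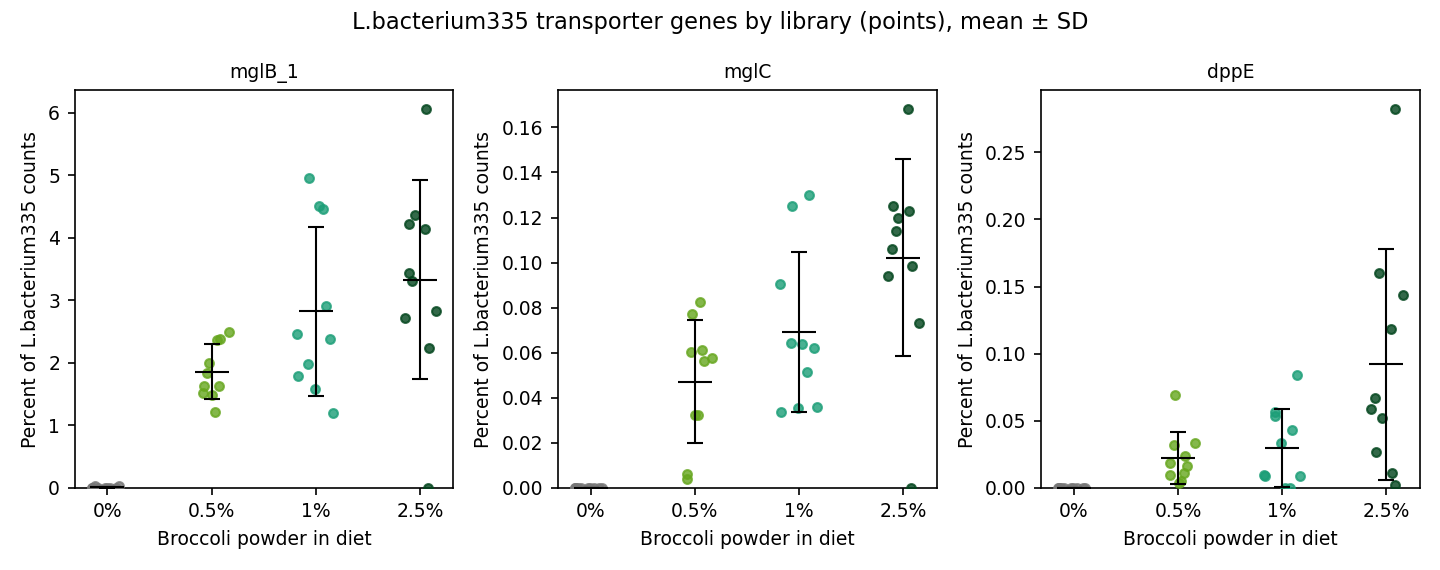
Percent of all L.bacterium335 counts on mglB_1, mglC and dppE (y axes, different scales) in each library (points) by percent of broccoli powder in the diet (x axis), with mean and SD (bars, stopped at 0), n = 10 per group. The mglB_1 mean goes from 0.00669% at 0% to 1.86, 2.82 and 3.33%, and 1 library at 2.5%, replicate 9, sits at the 0% level in mglB_1 and mglC.

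The other 6 L.bacterium335 rows had 0 counts in all 10 libraries at 0%, so only lower bounds on their folds can be given, taken against 3 counts for the 10 libraries of that group in sum. The permease gene mglC was at least 186-fold higher at 0.5%, 214-fold at 1% and 204-fold at 2.5%. The ATPase gene mglA_2 was at least 140-fold, 160-fold and 108-fold higher, and its copy mglA_1 at least 47-fold, 81-fold and 80.5-fold. In CPM mglA_2 ranged from 275 to 798 at 0.5%, 332 to 998 at 1% and 12.5 to 606 at 2.5%, in every library above the 0 of the 0% group. The dipeptide-binding gene dppE was at least 76.1-fold higher at 0.5%, 80.9-fold at 1% and 173-fold at 2.5%. The dipeptide permease gene dppB was at least 40.4-fold, 50.6-fold and 22.6-fold higher. With 0 counts at 0%, these 5 rows could pass the low-count filter through the doses alone, so a test against 0% adds nothing and no p-value is given. The row mglB_2 did not pass the low-count filter and had 0, 10, 32 and 216 counts in order of dose, at least 2.32-fold, 4.6-fold and 7.89-fold higher. Reads of the mglA and mglB copies may have been divided by the counting, so values of each copy are uncertain.

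A rise of this size was common in the genome. Of 1384 tested genes 79.4%, 78.4% and 77.8% were called higher at 0.5, 1 and 2.5%, and 65.2% had 0 counts in every 0% library. Rows at 0 there could pass the filter through the doses alone. With such genes at their lower bound, the median log2 fold change of the 6 rows that passed the filter was 6.69, 6.83 and 7.1, beside 4.79, 4.83 and 5.17 for all tested genes. Nothing is read from this difference. Of 32 other sugar ABC transport rows 19 passed the filter, as did 4 of 13 other peptide transport rows, 3 of 4 galactose rows and 4 of 5 peptidase rows. Apart from msmX and ngcE, the rows that passed had 0 to 4 counts over the 0% group. They could pass the filter through the doses alone, so calls against 0% are not counted for these lists. The arabinose permease gene araQ_1 and the permease gene lacF_1 had 0 counts over the 0% group and 17884 and 5633 at 2.5%. The counts at 2.5% were 1855 for the peptide-binding gene gsiB, 2095 for galT and 5084 for the oligopeptidase gene pepF1, all with 0 at 0%.

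Between doses, no L.bacterium335 row passed the test in any of the 3 contrasts, where 0.145%, 13.2% and 8.38% of all tested genes were called. For 2.5% against 0.5% the log2 fold changes ran from -0.70 ± 0.68 (dppB, 0.28 without libraries 76 to 81) to 1.17 ± 0.60 (dppE), the latter with edgeR adjusted p = 0.251. These values depended on the scaling: with RLE factors all 6 were called higher, from 2.32 for mglA_2 to 3.70 for dppE, and dppB, mglA_2 and mglB_1 changed sign. RLE factors moved the median of all tested genes in this contrast from 0.14 to 2.64 and the share of calls that were higher from 5.46% to 98.3%. The order of the 3 doses within this bacterium thus changed with the scaling. Counts of mglB_1 per count of mglC were 36.3, 36.4 and 31.4 at 0.5, 1 and 2.5%, a ratio that does not use the scaling. The ratio of mglA_2 to mglA_1 was 2.25 at 0.5%, 1.2 at 1% and 1.29 at 2.5%.

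The library 2.5% replicate 9 had 5 counts of mglB_1 among 101772 counts on the genome and 0 of mglA_1, mglB_2, mglC and dppB, like the 0% libraries. Without it and 2.5% replicate 8, the log2 fold change of mglB_1 was 9.08 against 0% and 0.07 against 0.5% (the latter with edgeR adjusted p = 0.946).

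The same symbols could thus be followed in 2 bacteria of the same gut. Counts of F. rodentium mglB peaked at 0.5%, whereas those of L.bacterium335 mglB_1 were high at each dose. Of the mglB counts on both genomes together, 10.2% lay on L.bacterium335 at 0%, 76.5% at 0.5%, 99.4% at 1% and 99.8% at 2.5%. Per library the median share was 8.4%, 83.2%, 99.1% and 99.9%. This share also follows the totals of both genomes. In 2.5% replicate 6, L.bacterium335 mglB_1 held 18154 counts while F. rodentium mglA, mglB and mglC held 0. Taking 3 counts as the upper limit for a count of 0, this limit equals 0.0165% of the L.bacterium335 mglB_1 count in that library. Whether reads were shared between the genomes was not tested. F. rodentium had only 161 counts in all there, so these 0 counts say nothing of how it transcribes its mgl genes. In 2.5% replicate 9, with 352 counts on F. rodentium and 5 of mglB_1, the limit was 60%.

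**Figure D4:**
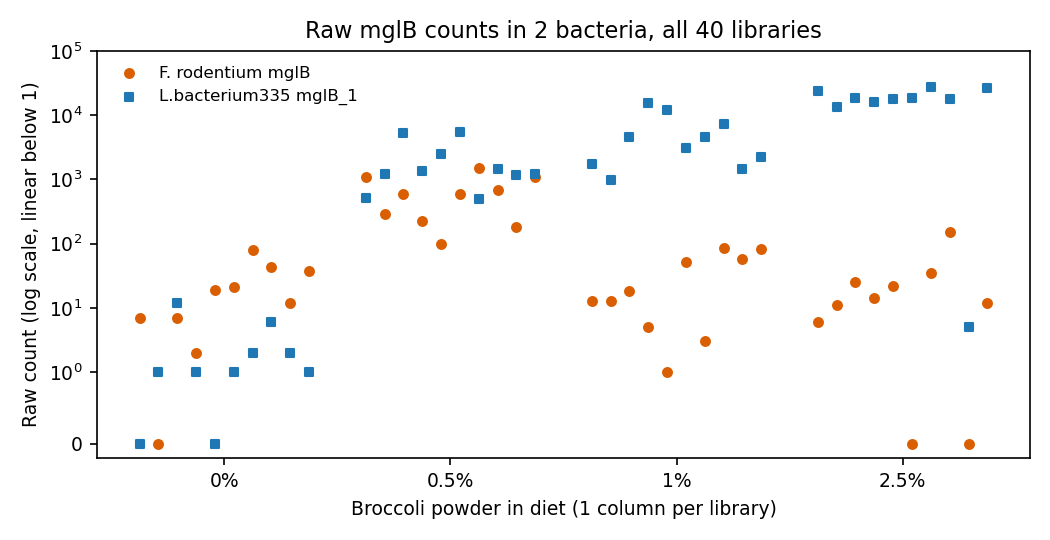
Raw counts of F. rodentium mglB (circles) and L.bacterium335 mglB_1 (squares) in all 40 libraries (y axis, logarithmic above 1 and linear below), grouped by percent of broccoli powder in the diet (x axis, 1 column per library). F. rodentium counts are highest at 0.5% (100 to 1483), and L.bacterium335 counts are 0 to 12 at 0% and far above them at each dose, with 5 counts in 2.5% replicate 9.

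The changes of a symbol in 2 bacteria were compared within libraries as the difference of log2(CPM + 1), for 7 pairs of genes at 3 doses. All 21 are descriptions without a p-value, because each pair holds either a gene chosen by its difference from 0% or a gene with 0 counts in every 0% library. F. rodentium minus L.bacterium335, the differences were -5.95, -6.15 and -5.65 for dppB in order of dose, and -7.67, -7.15 and -8.75 for dppE_1 against dppE. For mglA against mglA_2 they were -5.81, -8.41 and -7.16, and for mglC -5.41, -8.94 and -6.61. For mglB the change at 1% was 1.78 in F. rodentium and 11.02 in L.bacterium335. With 0 or few counts in L.bacterium335 at 0%, these sizes depend on the pseudocount (with 10 CPM in place of 1, mglC at 0.5% gave -3.04), and they include the rise of that whole genome.

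In Acetatifactor, agpA and dppB_1 took a larger part of the genome's counts on average with each higher dose. Of neighbouring doses only 1% against 0.5% was given a test, which neither gene passed. The gene agpA had 0 to 2350 CPM at 0% (median 364), 0 to 10300 at 0.5% (median 1430), 1430 to 21600 at 1% (median 5500) and 0 to 31800 at 2.5% (median 11200). Neighbouring groups overlapped in every case. At 0% 4 of 10 libraries had 0 counts of agpA, at 0.5% 1, at 1% 0 and at 2.5% 1, replicate 8, while the other 9 had 4630 CPM or more. The means were 531 ± 737, 2770 ± 3420, 7700 ± 6780 and 12200 ± 8920 CPM (SD, n = 10 each). Against 0% the log2 fold changes were 2.39 ± 0.80, 3.86 ± 0.84 and 4.53 ± 0.87, in order of dose.

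**Figure D5:**
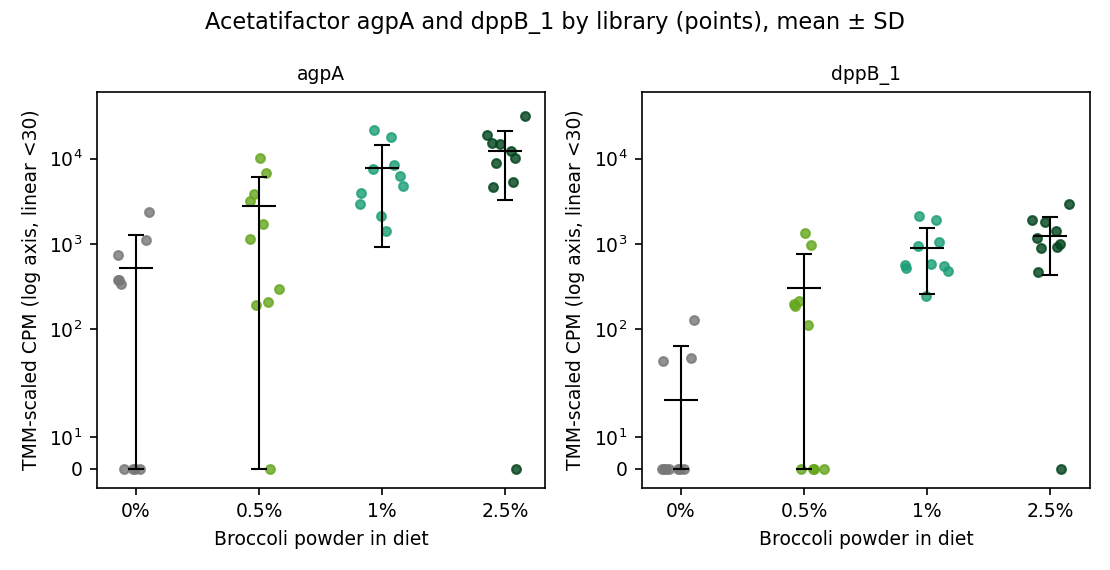
TMM-scaled CPM of agpA and dppB_1 of Acetatifactor (y axis, logarithmic above 30 and linear below) in each library (points) by percent of broccoli powder in the diet (x axis), with mean and SD (bars, stopped at 0), n = 10 per group. The agpA means go from 531 to 12200 CPM and those of dppB_1 from 21.7 to 1250 CPM, and 1 library at 2.5%, replicate 8, is at 0 in both.

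The dipeptide permease gene dppB_1 had 5 counts over the 0% libraries, with 0 to 128 CPM and a median of 0. At 0.5% it had 0 to 1350 CPM (median 151), at 1% 246 to 2160 (median 577) and at 2.5% 0 to 2910 (median 1100). All 10 libraries at 1% and 9 of 10 at 2.5% lay above the 0% range, but only 5 of 10 at 0.5%. Its means were 21.7 ± 41.8, 304 ± 468, 905 ± 645 and 1250 ± 815 CPM (SD, n = 10 each), and its log2 fold changes against 0% were 3.81 ± 0.89, 5.28 ± 0.90 and 5.75 ± 0.90. Without 0% replicate 3 these values of dppB_1 were 4.88, 6.32 and 6.78, and those of agpA were 3.12, 4.55 and 5.21, each over 1.5 times higher as a fold. The second copy, dppB_2, did not pass the low-count filter. It had 0 counts at 0%, 7 at 0.5%, 32 at 1% and 158 at 2.5%, at least 2.63-fold higher at 1% and 6.42-fold at 2.5%.

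The one contrast that the choice of these genes did not use, 1% against 0.5%, gave 1.47 ± 0.76 for agpA (edgeR adjusted p = 0.435) and 1.47 ± 0.67 for dppB_1 (edgeR adjusted p = 0.431). In it 0.259% of the 773 tested genes were called, and the median of all was 0.28. The unadjusted p was 0.0575 for agpA and 0.0315 for dppB_1.

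Much of the Acetatifactor genome differed from 0% in the same direction. Of the 773 tested genes 21.6%, 49.5% and 54.5% were called higher at 0.5, 1 and 2.5%, with medians of 0.95, 1.58 and 1.81 on the log2 scale. In rank of log2 fold change at 2.5%, dppB_1 stood 11th and agpA 32nd. This contrast chose both genes, so nothing is read from these ranks. The total on the genome moved with the dose, from a median of 35241 counts at 0% to 129471 at 2.5%. With log10 of this total in the model the differences at 2.5% were 2.97 for agpA and 4.07 for dppB_1. With RLE factors they were 6.68 and 7.85, the median of all genes being 3.84, and the share of calls that were higher went from 70.8% to 96.3%. Without 2.5% replicates 8 and 9 they were 4.79 and 6.20. The ratio of agpA to dppB_1 counts was 7.98, 9.1 and 9.54 at 0.5, 1 and 2.5%. At 0% it was 24, from 5 counts of dppB_1.

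Of 36 other sugar ABC transport rows of Acetatifactor 6 passed the low-count filter. Apart from msmX, these rows had 7 to 32 counts each over the 0% group. They could pass the filter through the doses alone, so their calls against 0% are not counted. At 2.5% the log2 fold change of the permease gene lacF_1 was 3.23 ± 0.74. The gene msmX, for an ATPase that several sugar importers share, went from 13900 to 4180 CPM and fell by 1.74 ± 0.40 (log2) at 2.5% (edgeR adjusted p = 0.000257), a direction that RLE factors turned to 0.15 (edgeR adjusted p = 0.644). Of 7 other peptide transport rows 2 passed the filter. These, the oligopeptide ATPase genes oppD (4.23 ± 0.89) and oppF (2.61 ± 0.77), were higher at 2.5%. The beta-galactosidase gene lacZ, the 1 of 7 galactose rows that passed the filter, was higher by 4.06 ± 0.86. None of 4 peptidase rows passed it. At 0% lacF_1 had 15 counts in sum, oppD 12, oppF 12 and lacZ 3. These genes could pass the filter through the doses alone, so no p-value is given for them. Without 0% replicate 1 the values at 2.5% were 4.24 for lacF_1, 3.22 for oppF and 4.68 for lacZ, without 0% replicate 3 that of oppD was 5.28, and without 0% replicate 8 that of lacZ was 4.71. With log10 of the total in the model the values of lacF_1, oppD and oppF were 1.5, 2.18 and 1.07.

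Between bacteria, dppB_1 of Acetatifactor was 7.73 above 0% at 1% on the log2(CPM + 1) scale, where dppB of F. rodentium was 0.14 above it. With 0 counts of dppB_1 in 7 of 10 libraries at 0%, the 7.73 depends on the pseudocount, and the fitted log2 fold change was 5.28 ± 0.90. The difference between these bacteria, 7.59, ran from 5.24 to 8.13 under the alternatives. Against dppB of L.bacterium335, which had 0 counts at 0%, the change of dppB_1 differed by -2.76 at 0.5% and 1.44 at 1%. The SD over the dose libraries was 4.65 and 2.18. All these differences are descriptions too, since dppB_1 was chosen by its difference from the same 0% libraries.

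The genes whose levels were most like those of the chosen ones were sought among tested genes with a symbol and a level at or above the median, by Pearson's r of log2(CPM + 1) over all libraries of the genome. For agpA these were pfp_2 (r = 0.974), pflB_1 (0.973) and fucI (0.933), out of 121 candidates over 40 libraries. These are named for a phosphofructokinase, pyruvate formate-lyase and fucose isomerase. After removing the group means the r values were 0.971, 0.968 and 0.918. For dppB_1 they were malX (0.918), btuD_20 (0.905) and rplA (0.866), a ribosomal protein gene. For mglB of F. rodentium likeness was lower, with licC (0.667), bglC (0.599) and ltaE (0.54) out of 531 candidates over 38 libraries, and 0.309, 0.175 and 0.129 after removing the group means. These libraries share diet, depth and scaling, so the values are descriptions.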

How the data were processed

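The authors deposited 1 table per bacterium with raw counts of each feature, whole numbers without normalization, per the file headers and values. Per the labels' protocols, total RNA of cecal contents was depleted of bacterial ribosomal RNA and made into KAPA RNA HyperPrep libraries. The sources used here do not name the aligner, the counting program, its use of strand and of shared reads, or the genome builds. Column names matched library titles. The Alistipes table, in which none of the symbols occurs, was not used here. The treatment label gave the groups. Replicates are numbered in sample order, which pairs nothing.

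Each genome was fitted alone in edgeR 4.0.16 (R 4.3.3): libraries with at least 10000 counts, filterByExpr, TMM factors, all 4 groups in 1 quasi-likelihood fit, two-sided, Benjamini-Hochberg over all tested genes per contrast at 0.05. In F. rodentium this left out 2 libraries. SE is the log2 fold change over the root of F. Permutation tests planned for differences between bacteria are not given, because every pair held a gene chosen by its 0% values or one at 0 in all 0% libraries. DESeq2 1.42.0 was an alternative. Libraries are single mice, and 0 of 180 pairs within groups were identical (smallest chi-square per degree of freedom 10.7). On simulated 4-fold changes at 2.5% against 0%, 73.1% were recovered in Acetatifactor (634 genes run), 100% in F. rodentium (1661) and 74.8% in L.bacterium335 (898). The simulation gave each gene 1 mean pooled over both groups, and all genes of a genome the same median spread. It thus held neither genes near 0 in the 0% group only nor genes of wide spread. These shares do not tell how many real changes would be found. Bounds and limits from 3 counts cover counting error only. Members, lists and the rule for naming genes (every called member, the highest row of each symbol, and up to 2 called genes per list at 2.5% by smallest p) were chosen with earlier results of these data known; galT and pepD_2 of F. rodentium were named after their values were seen. Alternatives covered scaling, filters, libraries, a covariate and DESeq2.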

Additional observations from a re-analysis of the deposited data

Results flagged for a closer look

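Of 61 sets of levels (a gene in a diet group), 15 held 1 library far below the others on the log2 scale. The rule would single out about 1 in 20 sets if values were normal and sets independent. Values of 0 CPM and sets that share a library break both conditions, so the 15 are not compared with that rate. In L.bacterium335, 2.5% replicate 9 was low in 6 of 7 rows, with 0 CPM of mglA_1, mglB_2, mglC and dppB, 12.5 of mglA_2 and 62.6 of mglB_1, while the other 9 libraries had 15000 CPM or more of mglB_1. In Acetatifactor, 2.5% replicate 8 had 0 CPM of agpA, dppB_1 and dppB_2, while the other 9 libraries had 4630 CPM or more of agpA. The remaining 6 were single values. They were agpA of Acetatifactor in 0.5% replicate 5 (0 CPM, others 195 to 10300), dppB of F. rodentium in 1% replicate 1 (50.8 CPM, others 197 to 508) and dppB of L.bacterium335 in 1% replicate 7 (0 CPM, others 27.5 to 666). The others were mglA of F. rodentium in 2.5% replicate 1 (0 CPM, others 22.5 to 103), mglB of F. rodentium in 0% replicate 2 (0 CPM, others 10 to 65.4) and mglC of F. rodentium in 0.5% replicate 5 (19.8 CPM, others 84.8 to 305).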

How the results depend on the processing

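No paired analysis was possible because the labels give no replicate numbers. The minimum of 50000 counts could not be fitted for Acetatifactor, where no 0% library reaches it. Of F. rodentium rows called, the count at 2.5% against 1% was 0, and 1 with RLE factors, with total counts, with no library minimum and with DESeq2, in each case mglC, and leaving out single replicates gave 0 to 1. Against 0% no count of called rows is given for this bacterium, since its mgl genes have no p-value there. The alternative without 2.5% replicates 8 and 9 was chosen after seeing the data. At 1% against 0.5% the count of F. rodentium rows called was 1, and 0 with DESeq2, which gave mglC no adjusted p. Leaving out single replicates gave 1 to 2 there. Without the low-count filter 1 Acetatifactor row, dppB_2, was called at 1% and 1 at 2.5%, against 0 with it. In L.bacterium335, 2.5% against 0.5% went from 0 calls to 6 with RLE factors, and dppB, mglA_2 and mglB_1 turned from -0.70, -0.36 and -0.12 to 2.50, 2.32 and 2.50. Also with RLE factors, msmX of Acetatifactor turned to 0.15. The cause of these changes was not tested. The other counts of called rows stayed within 1.5 times under every alternative run. Depth limits F. rodentium at 2.5%, where mglA and mglC had few counts per library.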
